A study of Rattus norvegicus with 22 samples.

Results

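The genes of oxidative phosphorylation were taken from the annotated array table by symbol: those beginning with Nduf, Uqcr or Atp5, those beginning with Cox4 to Cox8, and Sdha, Sdhb, Sdhc and Sdhd. The rule found 82 genes among the 13718 genes with a symbol of their own on the array. These 82 genes had 92 of the 31042 probe sets tested, and the probe set with the highest mean signal over all 22 arrays stood for its gene. The beginning of the array symbol placed 35 genes in complex I, 4 in complex II, 7 in complex III, 15 in complex IV and 14 in complex V. Ndufa4, which is now assigned to complex IV, was thus counted in complex I. So was Ndufa13-ps, whose array symbol is that of a pseudogene and which was matched to the current symbol Ndufa13. Another 3 were assembly factors of complex I (Ndufaf1, Ndufaf3, Ndufaf4), 1 was a pseudogene (Cox6c1), and 3 were not subunits by their current annotation. Of those 3, Cox4nb is now Emc8, which encodes a subunit of an endoplasmic reticulum membrane complex, Atp5s is now Dmac2l, and Atp5sl is now Dmac2, an assembly factor.

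The arrays compared 4 groups of brain tissue from Fisher rats that carried a 9L tumor in the right caudate nucleus: tumor and contralateral brain of 6 rats treated with microbeam radiation therapy (MRT), and tumor and contralateral brain of 5 untreated rats. In MRT, synchrotron X-rays are split into narrow parallel microbeams. The dose was 400 Gy in the microbeams and 18 Gy in the valleys between them, and tissue was taken 6 h later, 10 days after the 9L cells were implanted. All rats were male, all had a tumor, and every tumor came from the 1 implanted line of glioma cells, so that the untreated contralateral brain was brain of a tumor-bearing animal. Each rat gave 1 tumor array and 1 contralateral array, both cut from frozen sections by micropunch.

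Oxidative phosphorylation is the last stage of respiration in mitochondria. Complexes I and II pass electrons from NADH and succinate to ubiquinone, complex III hands them to cytochrome c, and complex IV to oxygen; complexes I, III and IV pump protons, and complex V (ATP synthase) uses the gradient to make ATP. Most subunits are encoded in the nucleus, as all genes considered here are, and the neurons of the brain depend heavily on this pathway.

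Many promoters of these genes are known to carry sites for NRF1, for the ETS factor GABP and for YY1. A window of 250 bases before the annotated start was found for 71 of the 82 genes in the RefSeq table (rat assembly GRCr8). No window was matched for the others, among them Atp5sl, Cox6a1, Cox6c, Ndufb9 and Uqcrb. Each window was searched on both strands for GCGCATGC (the core of the NRF1 motif), CCGGAAG (ETS) and AAGATGGC (YY1). The NRF1 letters are nearly their own reverse complement, so that 1 element can match on both strands.

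The NRF1 core was in the windows of 9 of 71 genes (12.7%), against 2.38% of the windows of all 27457 genes in the table. The ETS letters were in 21 (29.6%), against 7.74% of all. The YY1 letters were in 2 (2.82%), against 1.69%. Any of the 3 was in 26 (36.6%), against 11.1%, and the windows were richer in G and C, with a median of 56.8% against 52% over all genes. A match is a description of the letters and not a bound site.

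The windows of 3 genes whose signal was higher in tumor, of 2 whose signal was lower in tumor and of Atp5b, which passed the test in neither direction, are printed as examples of those classes. Capitals mark matches to the 3 motifs on either strand, and all are read 5′ to 3′ on the strand of the gene. Atp5g2 lies on the minus strand (chr7:135678219-135678468), Ndufa11 on the plus strand (chr9:1637364-1637613), Atp5j on the minus strand (chr11:37375102-37375351), Sdha on the plus strand (chr1:30764303-30764552), Ndufs1 on the minus strand (chr9:72073606-72073855) and Atp5b on the plus strand (chr7:1099808-1100057).
Atp5g2: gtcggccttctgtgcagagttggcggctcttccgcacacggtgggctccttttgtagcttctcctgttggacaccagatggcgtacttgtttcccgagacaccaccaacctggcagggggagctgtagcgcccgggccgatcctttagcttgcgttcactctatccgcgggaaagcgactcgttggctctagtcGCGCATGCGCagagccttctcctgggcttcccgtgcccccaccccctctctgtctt
Ndufa11: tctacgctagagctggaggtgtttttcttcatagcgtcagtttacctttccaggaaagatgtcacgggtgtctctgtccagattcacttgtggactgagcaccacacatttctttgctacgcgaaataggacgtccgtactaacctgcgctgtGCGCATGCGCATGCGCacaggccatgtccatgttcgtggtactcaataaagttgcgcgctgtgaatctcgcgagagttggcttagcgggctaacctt
Atp5j: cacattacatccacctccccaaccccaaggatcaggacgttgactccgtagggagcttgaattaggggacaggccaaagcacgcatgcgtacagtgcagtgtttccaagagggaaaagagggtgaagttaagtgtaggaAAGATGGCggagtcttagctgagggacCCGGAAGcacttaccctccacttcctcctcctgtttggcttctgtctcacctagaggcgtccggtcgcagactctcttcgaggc
Sdha: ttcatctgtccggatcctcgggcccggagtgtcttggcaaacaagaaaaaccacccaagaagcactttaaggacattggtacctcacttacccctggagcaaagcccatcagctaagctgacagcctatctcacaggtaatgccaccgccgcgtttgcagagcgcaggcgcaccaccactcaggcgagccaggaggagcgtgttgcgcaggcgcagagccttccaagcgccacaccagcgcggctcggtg
Ndufs1: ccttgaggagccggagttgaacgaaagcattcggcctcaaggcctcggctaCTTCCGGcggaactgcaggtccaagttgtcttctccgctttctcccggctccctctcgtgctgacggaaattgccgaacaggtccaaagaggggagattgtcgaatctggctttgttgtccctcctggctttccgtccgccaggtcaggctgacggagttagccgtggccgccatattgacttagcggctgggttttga
Atp5b: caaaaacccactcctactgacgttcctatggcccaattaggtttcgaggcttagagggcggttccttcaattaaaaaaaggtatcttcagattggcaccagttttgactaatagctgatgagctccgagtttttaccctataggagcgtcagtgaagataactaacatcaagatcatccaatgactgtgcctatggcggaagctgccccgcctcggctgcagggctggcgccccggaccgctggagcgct

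The capitals in the Atp5g2 and Ndufa11 windows are overlapping matches to the NRF1 core. Those in Atp5j are, from left to right, the YY1 and the ETS letters, and that in Ndufs1 is the ETS letters on the other strand. Sdha and Atp5b held none of the 3 within the window.

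The 82 genes were bright on the array and varied little. Part of the brightness follows from the rule. For the 10 genes with 2 probe sets it took the brighter one, while the background probe sets were not so chosen. Their median CV over the 22 arrays, on the signal scale, was 12.9%, against 21.7% over all probe sets and 28.4% over probe sets above the median level, and 78 of the 82 lay above that level. The CV ran from 5.78% for Cox7a2l to 40.2% for Cox8b. Of the 82 genes, 16 (19.5%) had a CV under 10%, against 7.18% of all probe sets and 2.31% of those above the median level, and 3 varied less than Atp5b. With Arpc1a, Atp5b was a reference gene of the study's RT-qPCR. The study chose both for their low variation in its Affymetrix data, so the low CV of Atp5b follows from that choice.

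Within groups, both arrays of rat 7 and the contralateral array of rat 3 stood apart in these genes. Rat 7 gave the highest or lowest value of its group for 64 of 82 genes in MRT contralateral brain and for 62 in MRT tumor, and rat 3 for 60 in untreated contralateral brain. In untreated tumor no array stood out so, with 45 genes for rat 5, 40 for rat 4 and 37 for rat 3. The contralateral arrays of rats 3 and 7 were both the highest of their groups for 33 genes and both the lowest for 17, and never opposite. The gap between 5′ and 3′ probe sets of beta-actin, GAPDH and hexokinase, a sign of RNA and labelling quality, averaged −1.26 and −1.04 (log2) on the tumor and contralateral arrays of rat 7 and −1.34 and −1.23 on those of rat 3. On the other 18 arrays it lay between −1.11 and −0.27. Counts without these 2 rats are given beside the results, and the part of RNA quality in them was not tested.

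**Figure D1:**
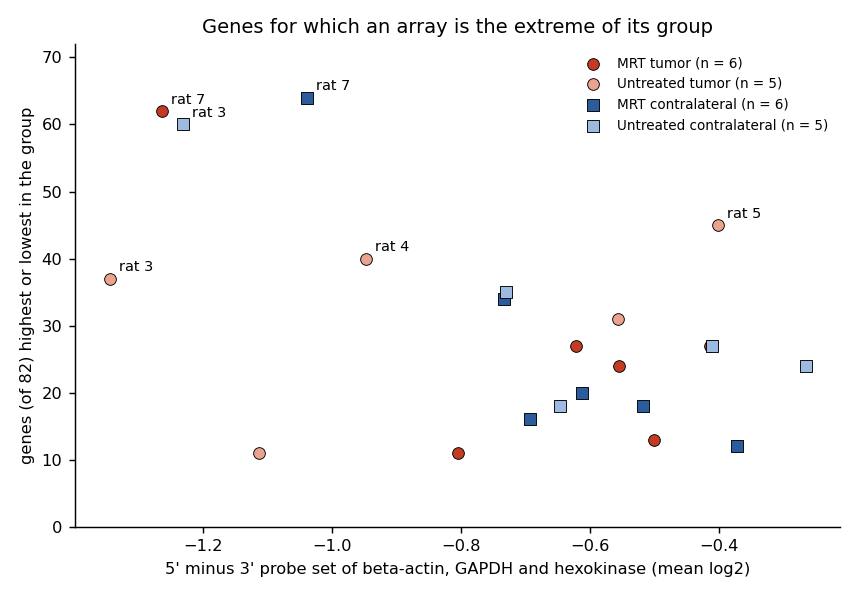
Number of the 82 genes for which an array had the highest or lowest value of its group (vertical axis) against the mean 5′ minus 3′ difference (log2) of 3 endogenous control genes (horizontal axis), 1 point per array. The contralateral arrays of rats 3 and 7 and the tumor array of rat 7 lie at 60 to 64 genes, above every other array.

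The first question was how tumor and contralateral brain differed in these genes within the same kind of rat. The differences were small. In MRT rats 7 genes had a higher and 28 a lower signal in tumor than in contralateral brain, and in untreated rats 11 were higher and 14 lower (limma, FDR 5% over all 31042 probe sets). No gene differed by 2-fold. The genes higher in tumor in both kinds of rat included Atp5g2, Atp5j, Uqcrb, Uqcrq and Ndufa11, and the lower ones Sdha, Ndufs1, Ndufs3, Uqcrc2 and Cox4i1.

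The share of genes called in MRT rats was 42.7%, against 54.2% of all probe sets (22.8% higher and 31.4% lower in tumor). In untreated rats it was 30.5%, against 54.8% of all (22.6% higher and 32.2% lower). Both shares lay under the background of this comparison, in which the larger part of the array was called. By direction, 8.54% of the genes were higher and 34.1% lower in MRT tumors, so that the lower calls were close to their background, and 13.4% were higher and 17.1% lower in untreated tumors. Differences past the test and over 1.5-fold were found for 3 genes in MRT rats (3.66%, against 31.7% of all probe sets) and for 6 in untreated rats (7.32%, against 33.8%). Over 2-fold there were none, against 16.2% and 17.9% of all.

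The median size of the difference, whatever its sign, was 0.189 (log2) in MRT rats and 0.158 in untreated rats, against 0.336 and 0.364 over all probe sets. Since most of the genes were bright, the 2895 probe sets with a mean log2 signal over 11 were taken as a second background, a level chosen after the values were seen. Their median size was 0.509 in MRT rats and 0.565 in untreated rats, and 71.7% and 71.6% of them were called. Of the 68 oxidative phosphorylation genes at that level, 30 were called in MRT rats (6 higher, 24 lower) and 21 in untreated rats (10 higher, 11 lower). The total counts and the sizes lay under both backgrounds, the lower calls in MRT rats close to that of all probe sets, and they are a description without a test of their own.

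**Figure D2:**
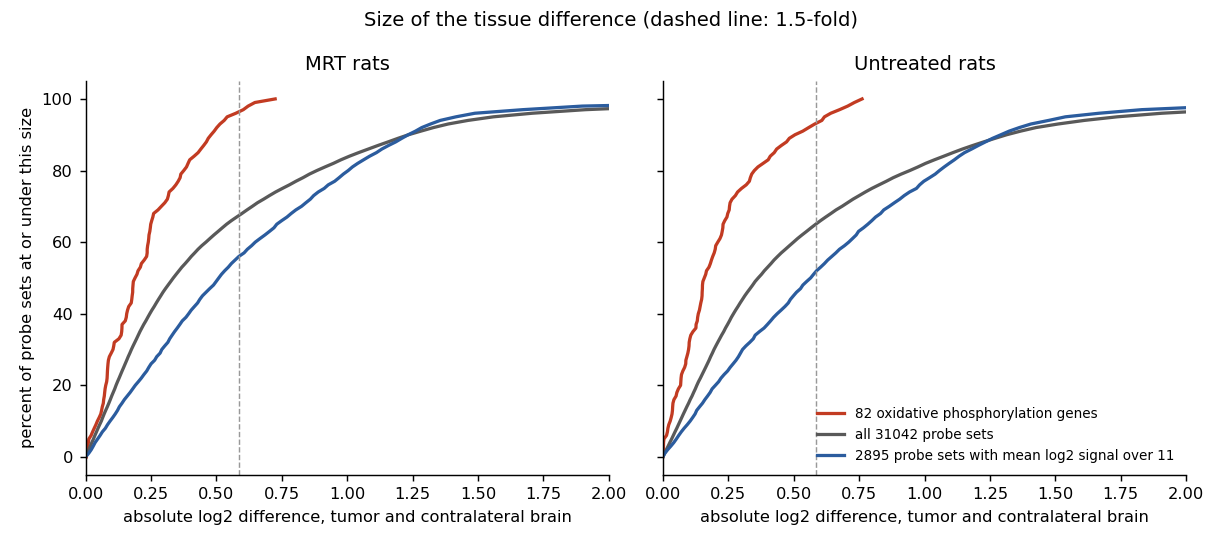
Cumulative percent (vertical axis) of probe sets at or under a given absolute log2 difference between tumor and contralateral brain (horizontal axis), in MRT rats (left) and untreated rats (right). The curve of the 82 genes rises fastest and ends under 2-fold, at 0.72 in MRT rats and 0.76 in untreated rats, while all probe sets and those with a mean log2 signal over 11 run on past 2.

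Calls in the 2 kinds of rat, which share no arrays, overlapped in 20 genes, 7 higher and 13 lower, which is 57.1% of the calls in MRT rats and 80% of those in untreated rats. The same overlap over all probe sets was not counted, so these shares have no background. Both comparisons came from 1 fit that shared the spread of each probe set, so the calls are not independent. No gene was called in opposite directions. A further 15 genes were called lower in MRT rats without a call in untreated rats, 4 were called higher and 1 lower in untreated rats without a call in MRT rats, and 42 were called in neither. These sets are counts of calls and not of differences between MRT and untreated rats, which were tested separately.

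The direction of the counts depended on how the arrays were scaled. The median difference over all probe sets was −0.10 in MRT rats and −0.12 in untreated rats with the deposited values, −0.01 in both after cyclic loess, and −0.15 and −0.19 after scaling to the 75th percentile. With cyclic loess 15 genes were higher and 15 lower in MRT rats, and 15 higher and 10 lower in untreated rats. With the 75th percentile 7 were higher and 34 lower in MRT rats, and 9 higher and 23 lower in untreated rats. The median of the 82 genes was −0.14 in MRT rats and −0.01 in untreated rats with the deposited values, −0.00 and 0.06 after cyclic loess, and −0.19 and −0.08 after scaling. Of the 35 and 25 calls, 22 and 21 were kept after cyclic loess. Over all probe sets 16827 were called in MRT rats and 17010 in untreated rats with the deposited values. After cyclic loess these were 15949 and 15765, and after scaling 17735 and 18458.

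Markers of neurons and of proliferation differed by more. The background of the marker counts was 22.8% of all probe sets higher and 31.4% lower in MRT tumors, and 22.6% and 32.2% in untreated tumors. All 10 neuron markers measured were lower in tumor, in MRT rats (median −1.03) and in untreated rats (median −1.13). Their summed level (log2) was 15.5 to 16.1 in MRT tumors and 15.4 to 16.2 in untreated tumors, against 16.5 to 16.7 in MRT contralateral brain and 16.5 to 16.8 in untreated contralateral brain. All 5 proliferation markers measured were higher in tumor in both, with a summed level of 13.4 to 14.2 in MRT tumors and 13.5 to 14.6 in untreated tumors, against 11.6 to 11.99 and 11.5 to 11.7 in the contralateral brain of MRT and untreated rats. Other marker lists differed less evenly. Of 7 oligodendrocyte markers 5 were lower in MRT tumors and 1 in untreated tumors, and of 6 astrocyte markers 2 were higher and 3 lower in both. Of 6 microglia and macrophage markers 2 were higher in MRT tumors and 3 in untreated tumors. Of 6 endothelial markers 2 were higher and 1 lower in MRT tumors and 2 higher in untreated tumors, and of 8 pericyte and smooth muscle markers 4 were higher in MRT tumors, and 5 higher and 1 lower in untreated tumors. In bulk tissue fewer cells of a type and less RNA per cell cannot be told apart, and the part of the makeup of the tissue in the differences of these genes was not tested.

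**Figure D3:**
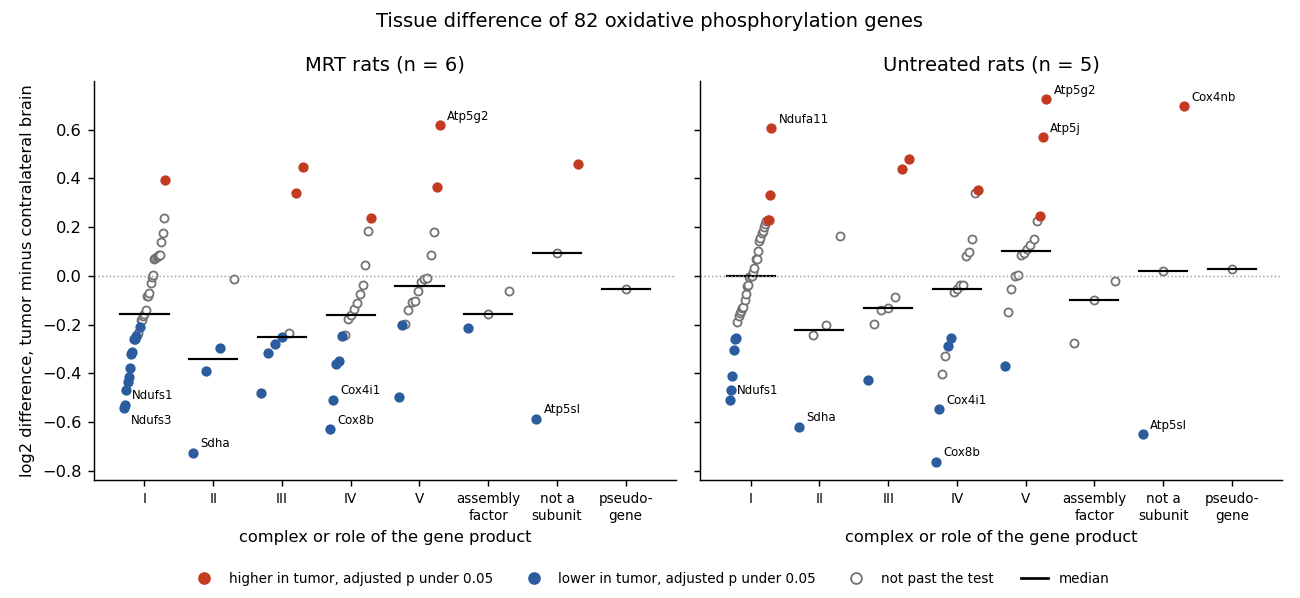
Log2 difference between tumor and contralateral brain (vertical axis) of each of the 82 genes, by complex or role (horizontal axis), in MRT rats (left, n = 6) and untreated rats (right, n = 5). Filled points passed limma at an FDR of 5%, and bars are medians: complex II lies lowest (−0.34 and −0.22), while complex V lies near 0 (−0.04 and 0.10).

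Complex I, the NADH dehydrogenase, had 1 gene higher and 12 lower of 35 in MRT rats (median −0.16, Ndufa4 included), and 4 higher and 6 lower in untreated rats (median −0.00). Of all probe sets, 22.8% were called higher and 31.4% lower in MRT rats, and 22.6% and 32.2% in untreated rats. The counts of the other complexes below have the same background. The lower calls of complex I in MRT rats were close to it. The lower genes were led by core subunits, which carry the flavin and the iron-sulfur clusters of the matrix arm. Of the 7 core subunits with a probe set, 4 were lower in MRT rats and the same number in untreated rats, with medians of −0.43 and −0.25. Of the 27 accessory subunits, counted without Ndufa4, which is now assigned to complex IV, 1 was higher and 7 lower in MRT rats (median −0.08), and 4 were higher and 2 lower in untreated rats (median 0.03). This division was made after the values were seen, so the counts are a description.

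Ndufs3, a core subunit of the matrix arm, had a lowest, median and highest log2 signal of 11.55, 11.73 and 11.89 in MRT tumors, against 12.17, 12.26 and 12.34 in MRT contralateral brain. In rats 1 to 5 it had 11.51, 11.88, 11.76, 12.08 and 11.78 in untreated tumors, against 12.31, 12.26, 12.27, 12.05 and 12.17 in untreated contralateral brain. It was lower in tumor in 10 of 11 rats, by limma −0.54 ± 0.08 (log2 difference ± SE, adjusted p = 1.5e-05) in MRT rats and −0.41 ± 0.09 (adjusted p = 0.00077) in untreated rats. The groups did not overlap in MRT rats and overlapped in untreated rats, where rat 4 had the highest tumor value and the lowest contralateral one.

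Ndufs1, the largest core subunit, had 10.63, 11.62 and 11.76 (lowest, median, highest) in MRT tumors, against 11.76, 11.998 and 12.24 in MRT contralateral brain. It had 11.21, 11.81, 11.14, 11.97 and 11.59 in the tumors of untreated rats 1 to 5, against 12.17, 12.14, 11.93, 12.01 and 12.002 in their contralateral brain. The difference was −0.53 ± 0.16 in MRT rats (limma, adjusted p = 0.0097) and −0.51 ± 0.18 in untreated rats (adjusted p = 0.021), and tumor was the lower tissue in 11 of 11 rats. The tumor of rat 7 lay far below the other MRT tumors, and the call in untreated rats was lost without rat 1 (adjusted p = 0.11) or rat 3 (0.076). Ndufv2, another core subunit, was at −0.43 and −0.25 in MRT and untreated rats (limma, adjusted p = 9.6e-05 and 0.017). Ndufs7 and Ndufv1 stayed under the threshold at −0.24 and −0.16 in MRT rats, and Ndufs8 was at 0.07.

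Ndufa11, an accessory subunit of the membrane arm, went the other way. It had 11.95, 12.22 and 12.75 (lowest, median, highest) in MRT tumors, against 11.58, 11.86 and 12.19 in MRT contralateral brain. It had 12.56, 12.56, 12.66, 12.50 and 11.90 in untreated tumors (rats 1 to 5), against 11.80, 11.88, 12.08, 11.58 and 11.81 in untreated contralateral brain. It was higher in tumor in 11 of 11 rats, by 0.39 ± 0.14 in MRT rats (limma, adjusted p = 0.023) and 0.61 ± 0.15 in untreated rats (adjusted p = 0.0023). The groups overlapped in both kinds of rat, and without rat 8 the call in MRT rats was lost (adjusted p = 0.11).

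Ndufa12, another accessory subunit, was lower in untreated tumors by −0.47 ± 0.08 (limma, adjusted p = 4.2e-05), while its difference in MRT rats was −0.16 (adjusted p = 0.059). Ndufa8, Ndufb8, Ndufa9 and Ndufa4 were lower in MRT tumors by −0.38, −0.32, −0.31 and −0.26 (limma, adjusted p = 0.0019, 0.013, 0.00042 and 0.0041). Of these 4, Ndufa8 alone was also called in untreated rats by the probe set that stood for the gene (−0.26, adjusted p = 0.039). The calls of Ndufb8 and Ndufa4 were lost after cyclic loess (adjusted p = 0.063 and 0.19), and for Ndufa9 the mean of its probe sets gave −0.53. The second probe set of Ndufa9, dim at a mean log2 signal of 5.85, was at −0.75 in MRT rats and −0.64 in untreated rats (limma, adjusted p = 1.5e-05 and 0.00024). Ndufb9, an accessory subunit of the membrane arm, was higher in untreated tumors by 0.23 (adjusted p = 0.011, or 0.068 without rat 3). Among the assembly factors Ndufaf3 was lower in MRT tumors by −0.21 (limma, adjusted p = 0.029), a call lost after cyclic loess (0.19) and without any of rats 9, 10 and 11 (0.051, 0.053 and 0.075).

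Complex II, succinate dehydrogenase, belongs to the tricarboxylic acid (TCA) cycle as well. Of its 4 genes, 3 were lower in MRT tumors and 1 in untreated tumors. Sdha, the flavoprotein that oxidises succinate, had 10.82, 12.02 and 12.36 (lowest, median, highest) in MRT tumors, against 12.34, 12.63 and 12.74 in MRT contralateral brain. It had 11.72, 11.999, 11.47, 12.16 and 12.24 in untreated tumors (rats 1 to 5), against 12.56, 12.67, 12.35, 12.60 and 12.50 in untreated contralateral brain. Sdha was thus lower in tumor in 11 of 11 rats, with no overlap in untreated rats and the tumor of rat 7 far below the rest.

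The difference of Sdha was −0.72 ± 0.18 in MRT rats (limma, adjusted p = 0.0022, 0.61-fold) and −0.62 ± 0.20 in untreated rats (adjusted p = 0.013, 0.65-fold). Without rat 1 the call in untreated rats was lost (adjusted p = 0.054). Sdhd and Sdhc, which anchor the complex in the membrane, were at −0.39 ± 0.10 and −0.29 ± 0.09 in MRT rats (adjusted p = 0.0025 and 0.0061) and at −0.24 and −0.20 in untreated rats (adjusted p = 0.066 and 0.072). Sdhd was lower in tumor in 11 of 11 rats and Sdhc in 10, and the call of Sdhc was lost after cyclic loess (adjusted p = 0.078). Sdhb, the iron-sulfur subunit, had nearly the same signal in both tissues of MRT rats (−0.01, adjusted p = 0.9) and 0.17 in untreated rats (adjusted p = 0.089).

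Complex III held genes that moved in both directions: 2 higher and 4 lower of 7 in MRT rats, and 2 higher and 1 lower in untreated rats. Uqcrb, a small subunit near the ubiquinone site, had 14.12, 14.24 and 14.31 (lowest, median, highest) in MRT tumors, against 13.60, 13.81 and 13.90 in MRT contralateral brain. It had 14.33, 14.26, 14.30, 14.19 and 14.00 in untreated tumors (rats 1 to 5), against 13.80, 13.80, 13.66, 13.68 and 13.75 in untreated contralateral brain. The tissues did not overlap in either kind of rat. The difference was 0.44 ± 0.07 in MRT rats (limma, adjusted p = 2.2e-05) and 0.48 ± 0.08 in untreated rats (adjusted p = 2.8e-05).

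Uqcrq, another small subunit, was higher in tumor in 11 of 11 rats, by 0.34 ± 0.09 in MRT rats (limma, adjusted p = 0.0033) and 0.44 ± 0.10 in untreated rats (adjusted p = 0.00082). Its values ran between 13.22 and 13.75 in MRT tumors and between 13.17 and 13.65 in untreated tumors, against 12.91 to 13.25 and 12.87 to 13.07 in the contralateral brain of MRT and untreated rats. Uqcrc2, a core subunit on the matrix side, was lower, by −0.48 (adjusted p = 0.0076) in MRT rats and −0.43 (adjusted p = 0.026) in untreated rats. Uqcr, Uqcrh and Uqcrfs1, the last of them the Rieske iron-sulfur protein, were lower in MRT tumors by −0.32, −0.28 and −0.25 (limma, adjusted p = 0.0049, 0.0051 and 0.00098). These 4 genes were named after their values were seen, as were Ndufv2, Ndufs7, Ndufv1, Ndufs8, Ndufa8, Cox5a, Cox6c, Atp5c1, the genes singled out for a dimmer probe set (Ndufa7, Ndufv3, Atp5s) and, among the regulators, Nrf1 and Tfam.

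Complex IV, cytochrome c oxidase, had 1 gene higher and 5 lower of 15 in MRT rats, and 1 higher and 4 lower in untreated rats. Several of its subunits have isoforms known from particular tissues. Cox4i1, the common isoform of subunit 4, had 12.63, 13.03 and 13.38 (lowest, median, highest) in MRT tumors, against 13.43, 13.52 and 13.82 in MRT contralateral brain. It had 13.08, 12.70, 12.97, 12.94 and 13.25 in untreated tumors (rats 1 to 5), against 13.51, 13.39, 13.78, 13.53 and 13.45 in untreated contralateral brain. The tissues did not overlap in either kind of rat, and the difference was −0.51 ± 0.12 in MRT rats (limma, adjusted p = 0.00082) and −0.55 ± 0.13 in untreated rats (adjusted p = 0.00099).

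Cox4i2, the isoform of subunit 4 known from lung and from low oxygen, was dim, with log2 signals between 5.67 and 6.79. Its differences of −0.24 and −0.33 did not pass the test (limma, adjusted p = 0.13 and 0.061). Cox8a, the common isoform of subunit 8, was lower in tumor by −0.35 ± 0.08 in MRT rats (limma, adjusted p = 0.0011) and −0.29 ± 0.09 in untreated rats (adjusted p = 0.011). The call in untreated rats was lost after cyclic loess (adjusted p = 0.057) and without rat 1 (0.050) or rat 3 (0.051).

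Cox8b, the isoform of subunit 8 known from heart and skeletal muscle, varied most of the 82 genes. It had 6.07, 6.48 and 6.91 (lowest, median, highest) in MRT tumors, against 6.30, 7.06 and 7.75 in MRT contralateral brain. It had 6.13, 6.97, 6.55, 7.13 and 6.21 in untreated tumors (rats 1 to 5), against 6.91, 7.42, 8.00, 6.95 and 7.52 in untreated contralateral brain. The groups overlapped and tumor was lower in 10 of 11 rats, by −0.63 ± 0.24 in MRT rats (limma, adjusted p = 0.033) and −0.76 ± 0.26 in untreated rats (adjusted p = 0.019).

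Without rats 3 and 7 the calls of Cox8b were lost (adjusted p = 0.054 in MRT rats and 0.079 in untreated rats), as in MRT rats without rat 6, 7, 9, 10 or 11 alone (0.055 to 0.074) and in untreated rats without rat 3 or 5 (0.10 and 0.084). Cyclic loess (0.077 and 0.055) ended both calls, a floor on low signals that of MRT rats (0.0505) and array weights that of untreated rats (0.084). Of 7 skeletal muscle markers 4 were lower in tumor in both kinds of rat, against 31.4% of all probe sets in MRT rats and 32.2% in untreated rats. The summed level of the muscle markers was 10.3 to 11.4 in MRT tumors and 10.4 to 11.5 in untreated tumors, against 11.7 to 12.3 and 12.1 to 12.6 in the contralateral brain of MRT and untreated rats. The list of muscle markers includes Pvalb, known from neurons as well, and its part in the count and the sum was not tested. The part of muscle RNA in the signal of Cox8b was not tested.

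Of the other isoforms of complex IV, Cox6b1 alone was called. Cox6a1, the common isoform of subunit 6a, was at 0.04 and 0.15 in MRT and untreated rats (limma, adjusted p = 0.73 and 0.27). Cox6a2, its muscle isoform, was at −0.04 and −0.40 (adjusted p = 0.87 and 0.087), with signals between 8.77 and 9.93 over all arrays. Cox6b1 was lower in MRT tumors by −0.25 ± 0.10 (adjusted p = 0.042), a call lost after cyclic loess (0.39) and without any of rats 2, 6, 9, 10 and 11 (0.053 to 0.10).

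Cox6b2, the isoform known from testis, was at −0.16 and −0.04 (limma, adjusted p = 0.51 and 0.89), and Cox7a2, Cox7a2l and Cox7b passed the test in neither kind of rat (Cox7a2 −0.13 and 0.08, Cox7a2l −0.07 and −0.05, Cox7b 0.18 and 0.34). Cox7a2l, which is known for joining complexes III and IV, had the lowest CV of all 82 genes. The genes of complex IV that were called in both kinds of rat beside Cox4i1, Cox8a and Cox8b were Cox5a and Cox6c. Cox5a was lower by −0.36 and −0.25 (limma, adjusted p = 0.00054 and 0.016), and Cox6c was higher by 0.24 and 0.35 (adjusted p = 0.0055 and 0.00041).

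Complex V, ATP synthase, had 2 genes higher and 2 lower of 14 in MRT rats (median −0.04), and 3 higher and 1 lower in untreated rats (median 0.10). Atp5g1, Atp5g2 and Atp5g3 encode the same mature subunit c of the rotor ring. Atp5g2 was called higher in both kinds of rat, Atp5g3 lower in MRT rats and Atp5g1 in neither direction. Atp5g2 had 12.21, 12.40 and 12.73 (lowest, median, highest) in MRT tumors, against 11.59, 11.74 and 12.38 in MRT contralateral brain. It had 12.95, 12.57, 12.63, 12.50 and 12.50 in untreated tumors (rats 1 to 5), against 11.86, 11.75, 12.29, 11.77 and 11.87 in untreated contralateral brain. Tumor was higher in 11 of 11 rats, without overlap in untreated rats. In MRT rats the contralateral array of rat 7 alone reached into the tumor range.

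Atp5g2 was higher in tumor by 0.62 ± 0.13 in MRT rats (limma, adjusted p = 0.00037, 1.53-fold) and 0.72 ± 0.14 in untreated rats (adjusted p = 0.0002, 1.65-fold). Atp5g3 was lower in 11 of 11 rats, by −0.20 ± 0.06 in MRT rats (adjusted p = 0.012, or 0.56 after cyclic loess) and −0.15 ± 0.07 in untreated rats (adjusted p = 0.076). Its values were 13.93, 14.01 and 14.11 (lowest, median, highest) in MRT tumors, against 14.14, 14.19 and 14.35 in MRT contralateral brain. Atp5g1 was at 0.18 ± 0.11 and 0.11 ± 0.12 in MRT and untreated rats (adjusted p = 0.18 and 0.46). Of the 3 genes, Atp5g2 alone differed by over 1.5-fold, and it alone held a match to the NRF1 core within the window searched. In complex V the core was also in the windows of Atp5i, Atp5l and Atp5o, which were called in neither kind of rat.

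Atp5j, which encodes coupling factor 6 in the stalk, had 13.08, 13.24 and 13.44 (lowest, median, highest) in MRT tumors, against 12.72, 12.90 and 13.04 in MRT contralateral brain. It had 13.49, 13.54, 13.45, 13.51 and 13.03 in untreated tumors (rats 1 to 5), against 13.05, 12.78, 12.73, 12.66 and 12.96 in untreated contralateral brain. It was higher in tumor in 11 of 11 rats, by 0.36 ± 0.10 in MRT rats (limma, adjusted p = 0.0037) and 0.57 ± 0.11 in untreated rats (adjusted p = 0.00016). The tissues did not overlap in MRT rats, and in untreated rats the tumor of rat 5 fell among the contralateral values. Atp5c1, the gamma subunit of the central stalk, was lower by −0.50 ± 0.09 in MRT rats (adjusted p = 0.00015) and −0.37 in untreated rats (adjusted p = 0.0047), whereas its second, dimmer probe set was at −0.01 and −0.00.

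Atp5b, the catalytic beta subunit and an RT-qPCR reference of the study, had 14.06, 14.18 and 14.34 (lowest, median, highest) in MRT tumors, against 14.18, 14.23 and 14.37 in MRT contralateral brain. It had 13.98, 14.20, 14.21, 14.27 and 14.06 in untreated tumors (rats 1 to 5), against 14.14, 14.34, 14.23, 14.30 and 13.99 in untreated contralateral brain. Its tissue difference was −0.06 ± 0.07 in MRT rats (limma, adjusted p = 0.49) and −0.05 ± 0.08 in untreated rats (adjusted p = 0.59), and its groups overlapped throughout. Since the study picked Atp5b for low variation over its samples, these small differences are no independent result.

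Of the 3 genes that are not subunits by their current annotation, 2 were called in both kinds of rat. Cox4nb (now Emc8) was higher in tumor in 11 of 11 rats, by 0.46 ± 0.12 in MRT rats (limma, adjusted p = 0.0027) and 0.69 ± 0.13 in untreated rats (adjusted p = 0.00014). Its values were 9.84, 10.04 and 10.35 (lowest, median, highest) in MRT tumors, against 9.44, 9.53 and 10.00 in MRT contralateral brain, so that rat 7's contralateral array lay above the lowest tumors. In rats 1 to 5 it had 10.32, 10.33, 10.32, 10.13 and 9.69 in untreated tumors, against 9.38, 9.59, 9.65, 9.37 and 9.34 in untreated contralateral brain, without overlap. Atp5sl (now Dmac2), known for the assembly of the distal membrane arm of complex I, had 8.66, 8.99 and 9.10 in MRT tumors, against 9.42, 9.52 and 9.75 in MRT contralateral brain.

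In rats 1 to 5, Atp5sl had 8.85, 8.78, 8.91, 8.95 and 9.33 in untreated tumors, against 9.65, 9.58, 9.63, 9.67 and 9.53 in untreated contralateral brain. It was lower without overlap in both kinds of rat, by −0.58 ± 0.09 in MRT rats (limma, adjusted p = 1.4e-05) and −0.65 ± 0.10 in untreated rats (adjusted p = 1.3e-05). Its second probe set was at −0.59 and −0.68. Of the 10 genes with 2 probe sets, none had calls in opposite directions, but 3 were called in both kinds of rat by the dimmer probe set alone. These were Ndufa7 (−0.80 and −0.76 in MRT and untreated rats, against 0.14 and 0.21 for the brighter probe set), Atp5s (−0.41 and −0.59, against 0.09 and 0.02) and Ndufv3 (0.38 and 0.37, against −0.07 and 0.07). For Ndufa9 both probe sets were called in MRT rats, and the dimmer alone in untreated rats (−0.64, against −0.13).

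**Figure D4:**
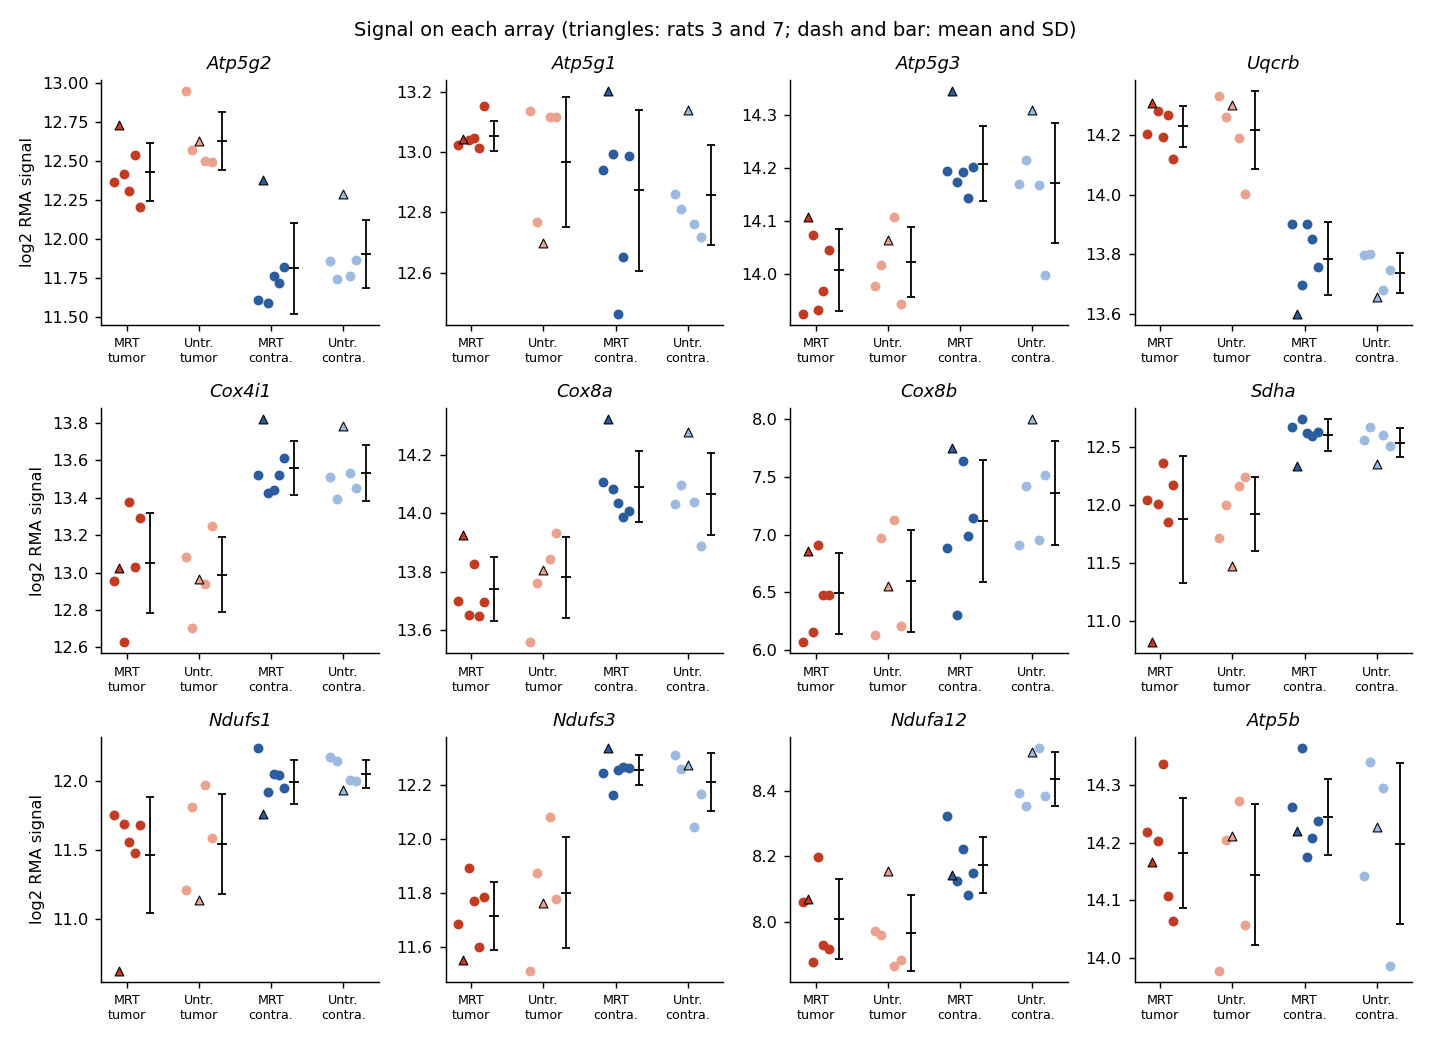
Log2 RMA signal (vertical axis) of 12 genes on each array, in MRT tumor, untreated tumor, MRT contralateral brain and untreated contralateral brain (n = 6, 5, 6 and 5), with the mean and SD beside the points and triangles for rats 3 and 7. Uqcrb and Cox4i1 separate the tissues in every rat, while the values of Atp5b overlap in all 4 groups.

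Without overlap between tumor and contralateral arrays, 3 genes were higher (3.66%) and 13 lower (15.9%) in MRT rats, against 13.6% and 16.5% of all probe sets. In untreated rats 7 were higher (8.54%) and 9 lower (11%), against 16.1% and 20.4% of all. The lower share in MRT rats was near the background, and the others lay under it. Without rats 3 and 7, an alternative added after seeing the data, 9 genes were higher and 33 lower in MRT rats (34 of the 35 calls kept), and 13 were higher and 14 lower in untreated rats (24 of the 25 kept). Over all 31042 probe sets 16799 and 15854 were then called in MRT and untreated rats, against 16827 and 17010 with all rats.

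Of the genes called higher in tumor, 5 in MRT rats and 7 in untreated rats had a promoter window, and 5 and 6 of these held 1 of the 3 motifs. Of those called lower, 24 and 11 had a window, and 6 and 3 of these held a motif. Among the genes not called, 15 of 42 windows in MRT rats and 17 of 53 in untreated rats held a motif. The NRF1 core was in 2 windows of higher genes (Atp5g2 and Ndufa11), in none of the lower genes and in 7 of the genes not called, in both kinds of rat. The motifs were not tested against the direction, and with 5 to 24 windows a group these shares are coarse.

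The other question was whether MRT changed these genes 6 h later. In tumor none of the 82 genes was called, against 0.918% of all probe sets (limma, FDR 5%), and none by SAM at the same FDR, against 2.16% of all. At an unadjusted p under 0.05 there were 3, against 8.39% of all probe sets, and all 3 were lower in MRT tumors: Ndufaf3, Ndufa9 and Cox6b2. Over the 82 genes the difference ran from −0.35 for Cox6b2 to 0.24 for Cox6a2, with a median of −0.07. The smallest adjusted p was 0.529. The unadjusted count was unstable: it was 11 without rat 7, 0 without rat 2, 4, 6, 10 or 11, 1 without rat 9, and 25 with array weights. The background moved too. Over all probe sets the calls at an FDR of 5% were 479 without rat 7 and 1762 with array weights, against 285 in the fit reported. They were 134 to 218 without 1 of rats 2, 4, 6, 9, 10 and 11. Without rat 7, Cox6b2 passed the test (−0.48, limma adjusted p = 0.047).

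Ndufaf3, an assembly factor of complex I, had 10.20, 10.28 and 10.44 (lowest, median, highest) in MRT tumors, against 10.50, 10.54, 10.42, 10.61 and 10.39 in untreated tumors (rats 1 to 5), a difference of −0.19 ± 0.08 (limma, adjusted p = 0.53). Ndufa9, an accessory subunit, had 11.61, 11.68 and 11.83 in MRT tumors, against 11.77, 11.91, 11.84, 12.07 and 11.78 in untreated tumors, a difference of −0.18 ± 0.08 (adjusted p = 0.55). The groups of both genes overlapped. Cox6b2 was at −0.35 ± 0.16 (adjusted p = 0.58). In none of the 82 genes did MRT and untreated tumors separate without overlap, as 1.6% of all probe sets did.

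The 95% interval of the difference lay within 1.5-fold for 78 of the 82 genes and within 2-fold for all 82, so larger changes of the group mean in tumor lay outside these intervals. The median size of the difference was 0.077, against 0.101 over all probe sets. By sign, 69 genes were lower and 13 higher in MRT tumors, whereas 50% of all probe sets and 59.5% of those with a mean log2 signal over 11 were lower. This split differed between labelling groups. Labelling spike-in controls on the contralateral arrays put the rats in a group with a steep 5′ to 3′ slope (rats 2, 3, 4, 6, 7 and 8) and a group with a flat one (rats 1, 5, 9, 10 and 11). The tumor arrays took the group of their rat and did not divide in the same way. The spike-in gap (log2) was −1.46 on the tumor array of rat 1, in the flat group, and −1.31 on that of rat 6, in the steep group. The untreated tumors of the flat group were those of rats 1 and 5 alone. In the steep group 66 of 82 genes were lower in MRT tumors (median −0.09), and in the flat group 42 of 82 (median −0.01). With the 5′ to 3′ gap of the endogenous control genes as a covariate, 56 of 82 were lower (median −0.02). Of the marker lists, 2 of 6 endothelial markers were called lower in MRT tumors, against 0.918% of all probe sets in either direction. Their summed level (log2) was 11.30 to 11.93, against 11.96 to 12.28 in untreated tumors. Of 6 microglia and macrophage, 8 pericyte and smooth muscle and 5 proliferation markers, 1 each was lower. No marker of the other lists was called. The part of these cell types in the signs was not tested.

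In contralateral brain none of the 82 genes was called either, against 4.1% of all probe sets (limma, FDR 5%), and SAM called none, against 6.1% of all. The difference ran from −0.26 for Ndufa12 to 0.21 for Ndufb8, with a median of 0.05, and 1 gene had an unadjusted p under 0.05, against 13% of all probe sets. That unadjusted count was 6 without rat 7, 7 with a floor on low signals and 4 with array weights, and 1 or 2 without any other rat. Over all probe sets the calls at an FDR of 5% were 1986 without rat 7, 1078 with the floor and 2598 with array weights, against 1272. The 95% interval lay within 1.5-fold for 80 genes and within 2-fold for all 82. By sign, 65 genes were higher and 17 lower in MRT brain, whereas 45.2% of all probe sets were higher and, of those with a mean log2 signal over 11, 45.2% were lower. The median was 0.06 within the steep and 0.04 within the flat labelling group. All 6 microglia and macrophage markers were called in this comparison (2 higher, 4 lower), with a summed level (log2) of 10.8 to 10.96 in MRT brain, against 11.1 to 11.3 in untreated brain. Of 6 endothelial markers 1 was higher and 2 lower (summed level 10.76 to 11.68, against 11.73 to 11.95). Of 8 pericyte and smooth muscle markers 3 were lower (10.91 to 11.43, against 11.47 to 11.90). Of 6 astrocyte markers 1 was higher, and of 5 proliferation markers 1 was lower. No neuron, oligodendrocyte or skeletal muscle marker was called. The part of these cell types in the signs of the 82 genes was not tested.

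Ndufa12 had 8.08, 8.15 and 8.32 (lowest, median, highest) in MRT contralateral brain, against 8.39, 8.35, 8.52, 8.53 and 8.38 in untreated contralateral brain (rats 1 to 5). The groups did not overlap, as in 3.79% of all probe sets, and Ndufa12 was the only one of the 82 genes to separate so. The difference was −0.26 ± 0.08 (limma, adjusted p = 0.083, 0.83-fold), which did not pass the test. It passed with a floor on low signals (adjusted p = 0.020), with array weights (0.044) and with the 5′ to 3′ gap as a covariate (0.049), the last an alternative added after seeing the data. In tumor Ndufa12 had 7.88, 8.00 and 8.20 in MRT rats, against 7.97, 7.96, 8.15, 7.86 and 7.88 in untreated rats, values that overlapped.

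Ndufb9, with the next smallest p in contralateral brain, had 13.64, 13.85 and 13.87 (lowest, median, highest) in MRT rats, against 13.79, 13.69, 13.55, 13.62 and 13.70 in untreated rats, a difference of 0.15 ± 0.08 (limma, adjusted p = 0.47) with overlap. Atp5b was at 0.04 ± 0.08 in tumor and 0.05 ± 0.08 in contralateral brain. All 4 genes of complex II were lower in MRT tumors and higher in MRT brain by point estimate, with medians of −0.04 and 0.06, none past the test. The medians of complexes I, III, IV and V were −0.09, −0.04, −0.06 and −0.09 in tumor and 0.04, 0.05, 0.03 and 0.07 in contralateral brain.

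**Figure D5:**
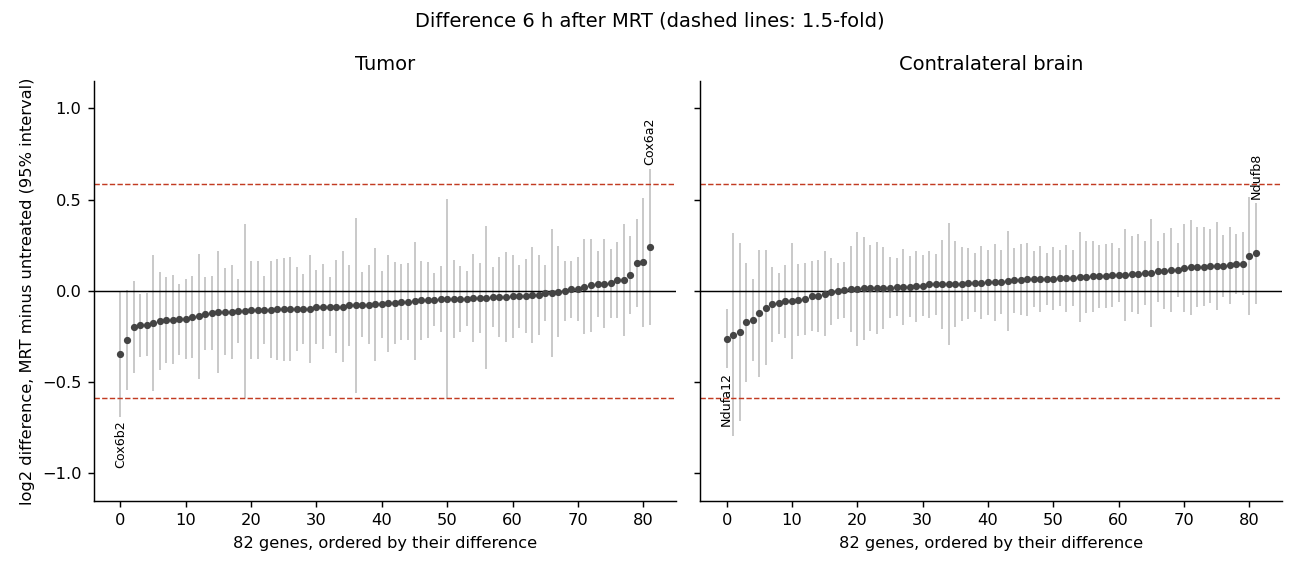
Log2 difference between MRT and untreated rats (vertical axis, points, with 95% intervals as lines) for the 82 genes in order of size, in tumor (left) and contralateral brain (right). Most points lie between −0.2 and 0.2, all intervals stay within 2-fold, and the extremes are Cox6b2 (−0.35) and Cox6a2 (0.24) in tumor and Ndufa12 (−0.26) and Ndufb8 (0.21) in brain.

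The difference between the MRT response of tumor and that of contralateral brain was then tested as an interaction over all 22 arrays. No gene was called, against 0.467% of all probe sets (limma, FDR 5%; SAM was not run on it), and 1 had an unadjusted p under 0.05, against 3.85% of all. That gene was Ndufa12, at 0.30 ± 0.11 (adjusted p = 0.63). Ndufb8 followed with −0.32 ± 0.15 (adjusted p = 1), from −0.11 in tumor and 0.21 in contralateral brain. By sign the response was lower in tumor for 72 of 82 genes (median −0.12), whereas 47.5% of all probe sets and 62.3% of those with a mean log2 signal over 11 were lower.

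Within the labelling groups the interaction had a median of −0.16 in the steep group, where it was negative for 71 of 82 genes, and of −0.04 in the flat group, where it was negative for 53. All 35 tissue calls in MRT rats and all 25 in untreated rats kept their sign within both labelling groups. The calls were made on these same arrays, so the kept signs are a description and not a separate test. The median tissue difference in untreated rats was 0.06 within the steep and −0.15 within the flat group, and in MRT rats −0.13 and −0.16. The part of labelling in these medians was not tested beyond these values.

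The pathways around oxidative phosphorylation held 67 measured genes in 5 lists, of which 73.1% were called between the tissues in MRT rats and 68.7% in untreated rats, against 54.2% and 54.8% of all probe sets. Of 16 TCA cycle enzymes measured, 2 were higher and 12 lower in MRT tumors, and 2 higher and 8 lower in untreated tumors. Idh3a, a subunit of isocitrate dehydrogenase, was at −0.93 and −1.07 (limma, adjusted p = 1.1e-05 and 6e-06), and Dlat, a subunit of pyruvate dehydrogenase, at −0.85 and −0.87 (2.5e-06 and 6.6e-06). Of 20 glycolysis genes, 2 were higher and 13 lower in MRT tumors, and 3 higher and 12 lower in untreated tumors, with Hk2, a hexokinase, higher by 1.55 and 1.54 (1.3e-08 and 5.4e-08).

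Of 15 regulators of mitochondrial biogenesis, 8 were higher and 3 lower in MRT tumors, and 8 higher and 5 lower in untreated tumors. Those named here were all higher, Nrf1 and Tfam were picked after their values were seen, and the lower ones are not named. Gabpa, the DNA-binding subunit of GABP, was at 2.07 and 1.82 in MRT and untreated rats (limma, adjusted p = 5e-09 and 1.3e-07), Nrf1 at 1.14 and 1.36 (5.8e-06 and 2.1e-06), Yy1 at 0.93 and 0.94 (4.6e-07 and 1.5e-06), and Tfam, which packs and transcribes mitochondrial DNA, at 0.70 in both. These differences of the genes for the factors whose motifs were searched were larger than any among the 82 genes, and whether the factors act on these promoters was not tested.

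Among 9 assembly factors of complexes III and IV, 3 were higher and 2 lower in MRT tumors, and 2 higher and 3 lower in untreated tumors. Of 7 genes for cytochrome c, adenine nucleotide carriers and related proteins, 1 was higher and 3 lower in MRT tumors, and 1 higher and 2 lower in untreated tumors. The shares called, 55.6% and 57.1% in MRT rats and 55.6% and 42.9% in untreated rats, were near or under the background of all probe sets. After MRT, 3 of the 67 genes were called (4.48%, near the 4.1% of all probe sets in contralateral brain), all higher in MRT contralateral brain: Pprc1, a coactivator related to PGC-1, by 0.54 (limma, adjusted p = 0.01), and the lactate transporters Slc16a1 and Slc16a3 by 0.70 and 0.52 (0.00094 and 0.022).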

How the data were processed

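RNA from tumor and contralateral brain of 11 rats was hybridised to Affymetrix Rat Genome 230 2.0 arrays, 1 array per tissue and rat. The intensity values were deposited by the authors as RMA signals (background-corrected, quantile-normalized and summarised per probe set in Affymetrix Expression Console), written as whole numbers on the linear scale from 10 to 36564. They were used as deposited, as log2 values. The table holds no counts, so the number of arrays limits the precision. The labels name the animals, so replicates were separate rats, and p-values cover the spread between them.

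The 57 control probe sets were left out. Within each tissue, MRT and untreated arrays were compared with limma 3.58.1 in R 4.3.3 (lmFit, eBayes; 9 residual degrees of freedom), and tissues and the interaction in 1 fit of 4 groups over 22 arrays (18 residual degrees of freedom), with Benjamini-Hochberg adjustment over 31042 probe sets and an FDR of 5%. SAM, the test of the study's methods, was an alternative. Intervals are 95%. Differences are log2, tumor minus contralateral or MRT minus untreated, and SE is that of limma. Symbols were matched to RefSeq names, 62 directly and 20 through synonyms; 2 probe sets with several symbols were left out.

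Tumor and contralateral arrays with the same number came from the same rat. Over all probe sets the deviations of these 11 pairs from their group means correlated with a median r of 0.312 (0.097 to 0.649), against 0.15 between different rats of the same labelling group (50 pairs) and −0.17 between groups (60 pairs). The study's methods compare MRT and untreated rats within a tissue, where no pairing exists, and give no rule for comparing the tissues. The fit reported here treated both arrays of a rat as independent, and the pairing was an alternative. With the rat as a fixed block, the adjusted p (limma) of Ndufa4 in MRT rats moved from 0.0041 to 0.019. That of Sdha in untreated rats moved from 0.013 to 0.0031. The labels assign no experimental session to a sample, and the labelling groups rest on the spike-in controls of the contralateral arrays.

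Named genes were the 6 largest increases and 6 largest decreases past the test per tissue comparison, the 2 genes with the smallest p per MRT comparison and interaction, the isoform sets, complex II, Atp5b, and the 2 genes with the smallest adjusted p from each surrounding list; others are marked as named after their values were seen. The genes, lists and rules were chosen with earlier results of these data known. Alternatives were a floor at the 25th percentile of signal, a filter on the level, cyclic loess, 75th percentile scaling, the mean of a gene's probe sets, array weights, other variance models, an FDR of 1%, a 1.5-fold minimum, leaving out each rat, the labelling group and the rat as blocks, and, chosen after seeing the data, leaving out rats 3 and 7 and a 5′ to 3′ covariate. The limma script was tested on simulated data. Values of 1 gene are included in the counts and are not reported singly here.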

Additional observations from a re-analysis of the deposited data

Results flagged for a closer look

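In each group of 5 or 6 arrays, the highest or lowest value was set against the others by Dixon's criterion for the 33 named genes and the median over the 82 genes. Of 136 sets, 21 held such a value, where chance gives about 1 in 20. Of these 21, 10 came from rat 7 and 4 from rat 3. All values are log2 signals.

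In MRT tumors rat 7 lay lowest for Sdha (10.82) and Ndufs1 (10.63), rat 8 lowest for Atp5sl (8.66), and rat 11 highest for Atp5g1 (13.15). In untreated tumors rat 5 lay lowest for Ndufb9 (13.72), Ndufa11 (11.90) and Atp5j (13.03), and rat 4 highest for Ndufb8 (11.35).

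In MRT contralateral brain rat 7 lay highest for Ndufaf3 (10.88), Atp5g2 (12.38), Atp5g3 (14.35), Cox6b1 (13.83) and Cox8a (14.32), and lowest for Ndufb9 (13.64), Sdha (12.34) and Sdhd (12.33). Rat 8 lay lowest for Ndufb8 (10.84). In untreated contralateral brain rat 3 lay highest for Atp5g2 (12.29), Cox6a1 (14.00) and Cox6b1 (13.74), and lowest for Sdhd (12.21).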

How the results depend on the processing

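The counts of genes called after MRT moved between 0 and 1. In contralateral brain the count was 1 with the floor at the 25th percentile, 1 with array weights and 1 with the 5′ to 3′ gap as a covariate, Ndufa12 each time, and 0 without any 1 rat. In tumor it was 1 with array weights (Ndufa5, −0.41, limma adjusted p = 0.037) and 0 to 1 over the rats left out, the 1 being Cox6b2 without rat 7 (−0.48, limma adjusted p = 0.047). For tissue in MRT rats the count was 3 with a 1.5-fold minimum and 29 (without rat 10 or 11) to 37 (without rat 3 or 7) over the rats left out, against 35 with all. For tissue in untreated rats it was 39 with array weights (20 higher, 19 lower), 13 at an FDR of 1%, 6 with a 1.5-fold minimum and 17 (without rat 3) to 32 (without rat 7), against 25 with all. The interaction count was 0 in every setting run (limma; 36 genes at an unadjusted p under 0.05 with array weights, against 1 in the fit reported). With the rat as a fixed replicate block, which pairs the tissues of an animal, 8 genes were higher and 32 lower in MRT rats and 12 higher and 15 lower in untreated rats; as a random block the counts were 39 and 30, and no count moved by over 1.5 times. No named difference that had been called changed sign. Over the rats left out, 55 to 70 of the 82 genes were lower in MRT tumors and 54 to 66 higher in MRT brain.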
